A study of Mus musculus with 18 samples.

Results

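The SLC25 family of mitochondrial carriers was followed across 6 groups of mouse dendritic cells. A member was any gene whose probe set carried a single gene symbol beginning with Slc25a and ending in a number, and the brightest probe set stood for a gene with more than 1. This gave 46 members among 19938 measured genes. The rule uses gene symbols and no signal value. The cells were grown from mouse bone marrow for 10 days in RPMI medium with 10% fetal bovine serum and the cytokine GM-CSF at 20 ng/ml. Every culture, wild type included, received 4-hydroxytamoxifen at 100 nM on day 6, a compound used to switch on inducible Cre recombinases. The labels give the cells 1 of 2 genotypes, wild type or knockout of a single gene. Cells of each genotype were left unstimulated or were given bacterial lipopolysaccharide (LPS, 10 ng/ml) for 1 h or 6 h. Each of the 6 groups had 3 arrays, which the series design calls biological replicates. For the Cre line, its promoter, the age of the mice and any pooling of animals, the sources used here give nothing.

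SLC25 proteins sit mostly in the inner mitochondrial membrane and exchange nucleotides, phosphate, amino acids, carboxylic acids, cofactors and metal ions between the matrix and the cytosol. They are encoded in the nucleus and reach the inner membrane through small Tim chaperones and the TIM22 complex. In dendritic cells and macrophages stimulated with LPS, mitochondrial metabolism is known to be redirected, and export of citrate and exchange of aspartate, malate and glutamate are part of that change.

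Signals are log2 values, so a difference of 1 is a 2-fold change. Errors are standard errors from a single limma fit over all 18 arrays, and a gene was called at a Benjamini-Hochberg adjusted p under 0.05 over all 19938 genes. Of the 46 members, 36 had a mean signal of at least 5 over the 18 arrays. The other 10 (Slc25a2, Slc25a21, Slc25a23, Slc25a27, Slc25a31, Slc25a34, Slc25a41, Slc25a48, Slc25a53 and Slc25a54) stayed under 5 in the mean of every group, and none of them was called in any comparison of values as deposited. In bulk RNA, fewer cells of a type and less RNA per cell cannot be told apart.

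All 8 dendritic cell markers had a mean signal of at least 5, and their mean lay between 8.70 and 9.82 on every array. At 6 h 3 of them were called between genotypes, Cd86 higher in knockout cells by 1.72 and Itgax and H2-Ab1 lower (−0.44 and −0.38); Itgax was also lower without LPS (−0.39). The mean of B cell markers did not pass 4.32 on any array, that of T and NK cell markers 4.13, and that of mast cell and basophil markers 3.76. Array means of neutrophil markers were 5.40 to 5.89, with S100a8 lower (−0.73) and Mpo higher (0.36) in knockout cells at 6 h, and those of stromal markers 5.41 to 6.09, with Pdgfrb higher (0.49). The macrophage list, which GM-CSF cultures also express, had array means of 8.22 to 8.50 in wild-type cells and 8.34 to 9.05 in knockout cells. At 6 h 3 of its 8 genes were called higher in knockout cells, Fcgr1 by 4.68, and 2 lower, Marco at −2.76. Fcgr1 (3.09) and Adgre1 (0.71) were already called higher without LPS. At 1 h Fcgr1 was called higher (3.02) and Marco lower (−2.64). Unstimulated knockout arrays read 8.15, 9.61 and 11.23 for Fcgr1 and 5.77, 6.41 and 9.10 for C1qa, both highest on the array numbered 3. Adgre1, Csf1r and Cd163 were also highest on that array. Marco (7.82, 7.09 and 5.85) and Mrc1 were lowest on it, and Mertk lay between. Over all 35556 probe sets, arrays correlated at r = 0.983 to 0.993 within a group and 0.941 to 0.993 between groups. The 3 knockout arrays at 6 h stood apart on the first principal component (54.7 to 78.1, against −36.1 to 21.8 for the other 15). Among the knockout arrays, those numbered 3 had the lowest mean of 11 cell cycle genes. Without LPS the knockout means were 8.73, 8.46 and 7.30, against 8.48 to 8.76 in wild-type cells. At 6 h they were 7.90, 7.42 and 6.55, all below the wild-type range of 8.16 to 8.60. Genes of this list called lower in knockout cells at 6 h included Mcm3 (−1.02), Ccna2 (−2.26) and Birc5 (−1.85), and none was called higher. The part of these marker and cell cycle genes in the differences below was not tested. The genotype labels were not checked by the level of the knocked-out gene.

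**Figure D1:**
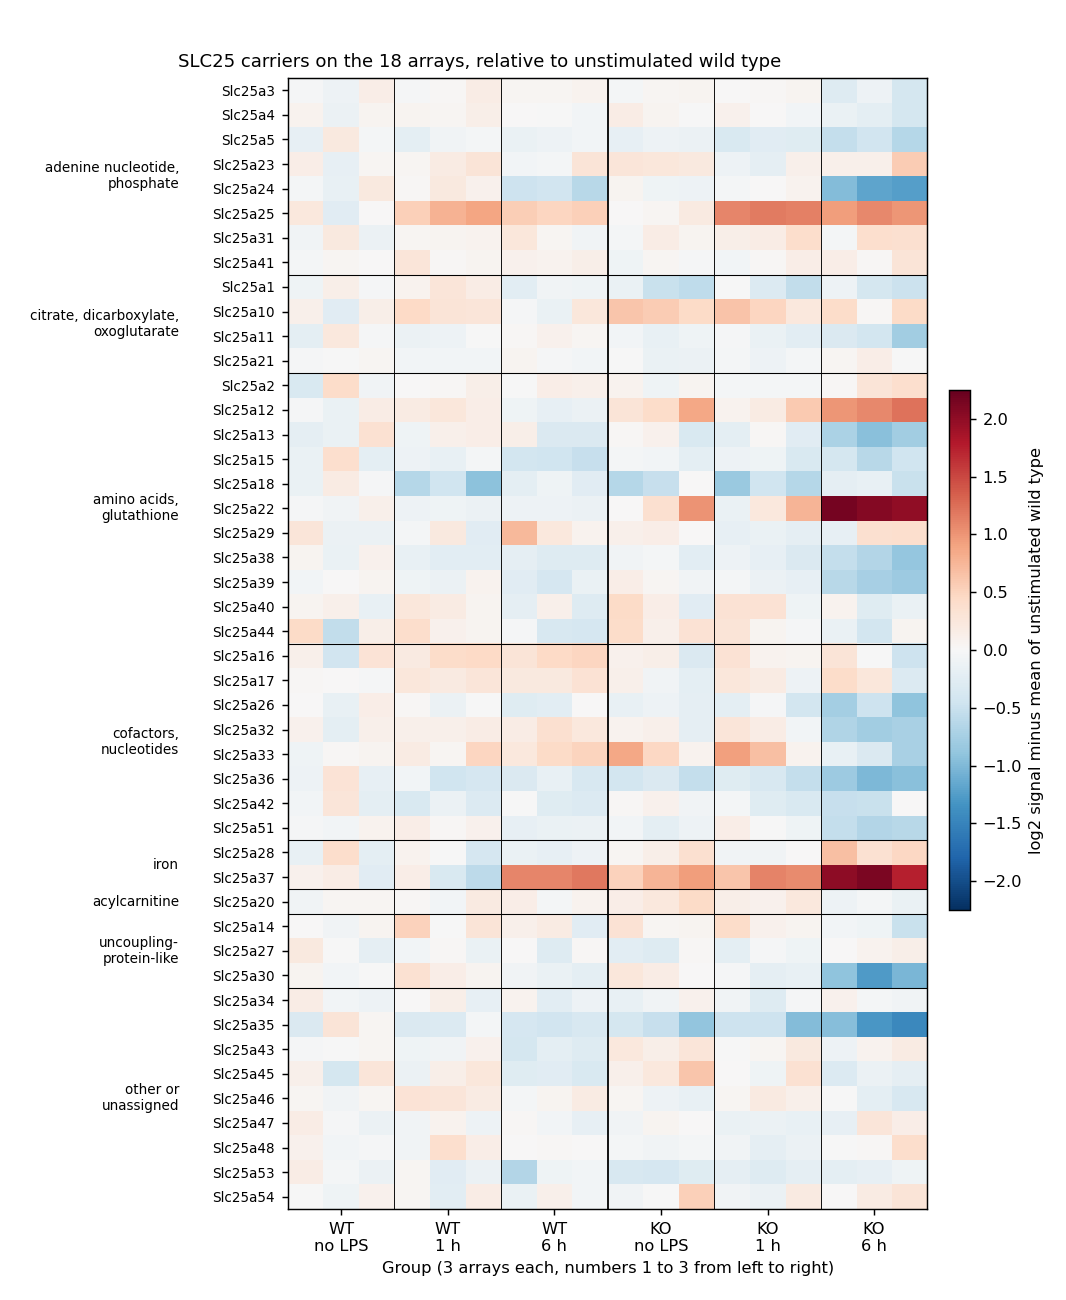
Log2 signal of each of the 46 SLC25 carriers (rows, grouped by substrate) on each of the 18 arrays (columns), minus the mean of unstimulated wild-type cells. The knockout arrays at 6 h of LPS hold the strongest colours, with Slc25a22 and Slc25a37 high and Slc25a24, Slc25a30 and Slc25a35 low.

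The first comparison asks whether carrier RNA differed between genotypes before LPS. In unstimulated cells 1 of the 46 members was called, against 2.44% of all genes. It was Slc25a37, mitoferrin-1, which brings iron into mitochondria for haem and iron-sulfur cluster synthesis. Its signal was 7.30, 7.55 and 7.72 on the knockout arrays and 6.88, 6.95 and 6.53 on the wild-type arrays. The groups did not overlap, and the difference was 0.74 ± 0.18 (n = 3 each, limma adjusted p = 0.0398). That call was lost when any of 10 arrays was left out singly (adjusted p 0.0188 to 0.178 over the 18 omissions) and with arrays scaled to their 75th percentile (adjusted p = 0.0733).

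No other member passed in unstimulated cells. An unadjusted p under 0.05 was found for 26.1% of members and 12.5% of all genes, and whether these shares differ was not tested. Slc25a10, the dicarboxylate carrier, stood next by adjusted p at 0.54 ± 0.14 (limma adjusted p = 0.0586), and then Slc25a12 at 0.52 ± 0.14 (limma adjusted p = 0.0754). The lowest member was Slc25a35 at −0.60, not called. With arrays scaled to their 75th percentile Slc25a35 was called lower (−0.65, limma adjusted p = 0.0396). Slc25a1, the citrate carrier, had 9.39, 9.03 and 8.95 in knockout cells and 9.43, 9.67 and 9.50 in wild-type cells. Its groups were apart, but the difference of −0.41 ± 0.14 was not called (limma adjusted p = 0.194). The genotypes also lay apart without LPS for 14.6% of all genes and 12 of the 46 members (26.1%).

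At 1 h of LPS, Slc25a37 was again the 1 member called, against 2.19% of all genes. It read 7.41, 7.90 and 7.84 in knockout cells against 6.93, 6.44 and 6.19 in wild type, a gap of 1.20 ± 0.18 or 2.30-fold (limma adjusted p = 0.00111). The lowest knockout array lay above the highest wild-type array. The groups lay apart, in either direction, for 19.6% of all genes and 100% of called genes.

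At 6 h of LPS the family split between the genotypes. Of the 46 members 21 were called (45.7%), 6 higher and 15 lower in knockout cells, and the 3 arrays of both groups lay apart for each of the 21. The groups lay apart for 44.3% of all genes and 97.4% of called genes. Of all genes 29.4% were called, 10.6% higher and 18.8% lower. Among genes with a mean signal of at least 5 the share was 44.8%, and 58.3% of the 36 members with such a signal were called. The median difference was −0.12 over all members and 0.04 over all genes. Among genes with a mean of at least 5 those medians were −0.21 and −0.17. Whether the family's shares differ from those of other genes was not tested, and gene lists counted below for 6 h stand beside the same shares. Scaling each array to its 75th percentile, which at 6 h was 7.43 to 7.63 over all genes for knockout and 7.77 to 7.80 for wild-type arrays, moved the median of all genes up by 0.24. The members' split was then 15 higher and 11 lower, with all 6 higher calls and 11 of the 15 lower ones kept. Of the 9 members gained as higher, 7 had a mean signal under 5. Without the knockout arrays numbered 3, an alternative chosen after seeing the data, 18 members were called, 5 higher and 13 lower.

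**Figure D2:**
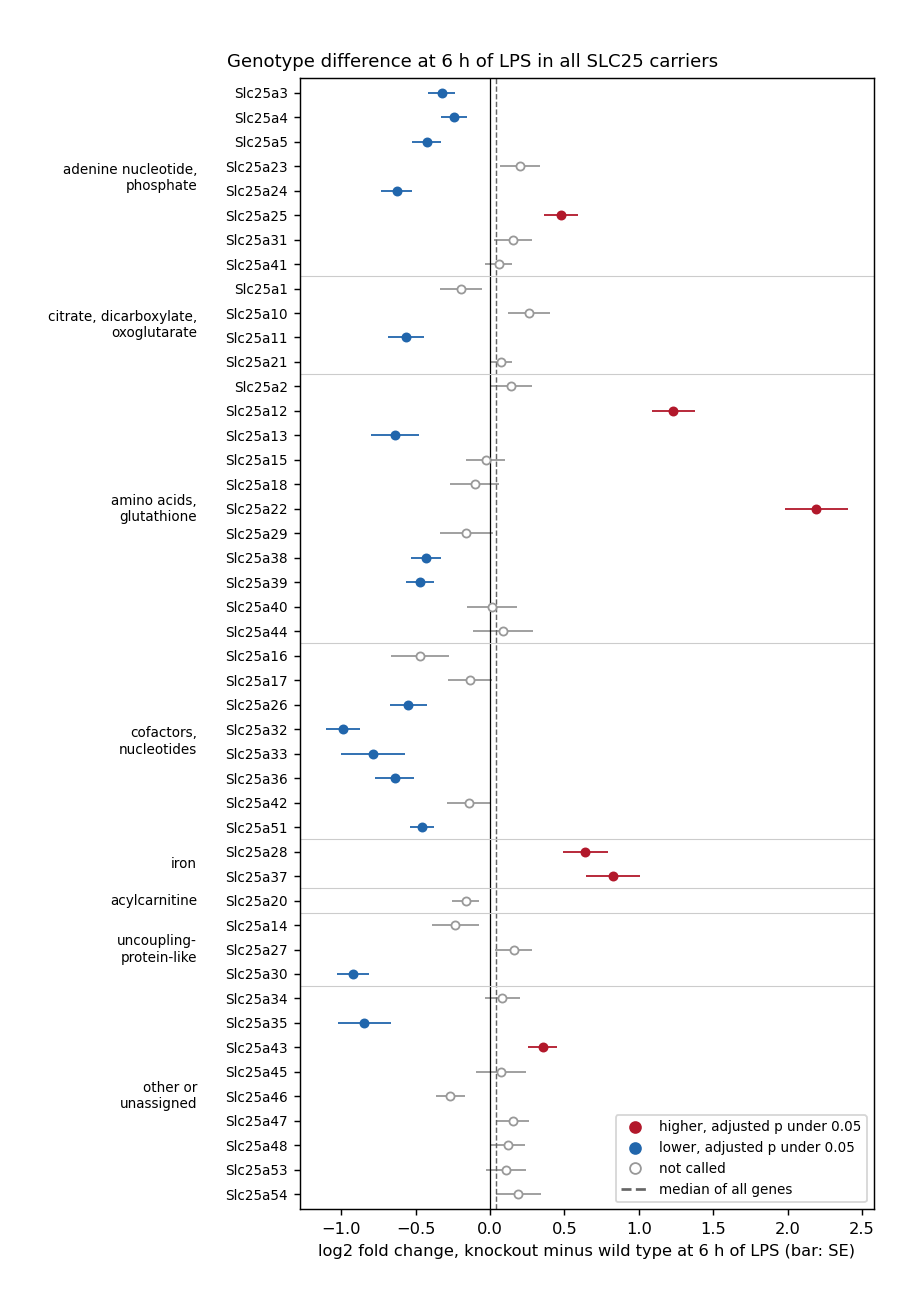
Log2 fold change of each of the 46 carriers at 6 h of LPS, knockout minus wild type, with its standard error (n = 3 arrays a group); filled points were called by limma. Slc25a22 lies farthest right at 2.19 and Slc25a32 farthest left at −0.99; Slc25a4 is the 1 called carrier whose sign turned when arrays were scaled to their 75th percentile.

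Amino acid carriers held the largest differences. Of 11 measured, 2 were higher, 3 were lower and 6 were not called. Slc25a22, which carries glutamate into mitochondria, read 8.73, 8.63 and 8.58 in knockout cells and 6.47, 6.45 and 6.44 in wild-type cells at 6 h. It was 2.19 ± 0.21 higher, or 4.57-fold (limma adjusted p = 1.66e-06). Unstimulated wild-type cells had 6.55, 6.49 and 6.68, close to their 6 h values, while unstimulated knockout cells had 6.59, 6.93 and 7.59. Slc25a22 on the knockout arrays before LPS thus spanned about 1 log2 unit, with the array numbered 3 highest, and the wild-type and knockout groups overlapped (0.46 ± 0.21, limma adjusted p = 0.378). The other glutamate carrier, Slc25a18, differed by −0.10 ± 0.16 at 6 h (limma adjusted p = 0.667).

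Promoter sequence is shown for Slc25a22 because its difference was the largest, and for Slc25a15, the ornithine carrier of the urea cycle, because the same motif lies in its promoter. The sequences are the 250 bases before an annotated transcript start, 5′ to 3′ on the gene's strand, from RefSeq on GRCm38.p6. Capitals mark the core of the interferon-stimulated response element, GAAA and GAAA parted by any 2 bases, searched on both strands. The Slc25a22 window is chr7:141435376-141435625 on the minus strand, before the middle one of its 3 listed starts, and the motif begins at −79. The Slc25a15 window is chr8:22398622-22398871, also on the minus strand, and the motif lies on the opposite strand at −77.
Slc25a22: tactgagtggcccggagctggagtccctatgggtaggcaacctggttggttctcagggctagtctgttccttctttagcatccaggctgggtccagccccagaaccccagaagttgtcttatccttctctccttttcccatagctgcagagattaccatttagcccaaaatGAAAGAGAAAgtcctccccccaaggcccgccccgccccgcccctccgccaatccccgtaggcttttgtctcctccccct
Slc25a15: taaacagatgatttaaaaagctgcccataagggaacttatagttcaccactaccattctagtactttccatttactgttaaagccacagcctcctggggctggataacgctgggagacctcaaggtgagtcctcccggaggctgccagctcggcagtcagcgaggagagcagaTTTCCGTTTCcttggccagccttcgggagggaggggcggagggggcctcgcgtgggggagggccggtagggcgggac

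Promoters were listed for 36 members, with 46 starts in all. The motif was in 2 of the 46 windows (4.35%) and in 2.98% of all 32851 windows of the same length. Slc25a22 and Slc25a15 did not share a response. Slc25a15 was called lower after 6 h of LPS in wild-type (−0.46) and knockout cells (−0.38), and differed between genotypes by −0.03 ± 0.13 at 6 h. Its knockout call was lost in 4 of the 18 omissions of a single array and with median centring (limma adjusted p = 0.0509). With arrays scaled to their 75th percentile the knockout change was −0.11 (limma adjusted p = 0.5). Of the other motifs searched on both strands, the NRF1 motif (GCGCA, any base, GCGC) was in 4.35% of member windows and 3.74% of all, and the ETS motif CCGGAAG in 13% and 6.91%. The NF-kB motif was in 8.7% of member windows and 7.25% of all. These matches are descriptions of letters in a window.

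Slc25a12 and Slc25a13 are paralogous aspartate/glutamate carriers of the malate-aspartate shuttle, which passes reducing power from cytosolic NADH to mitochondria, and they moved in opposite directions. Slc25a12 (aralar) read 9.52, 9.60 and 9.74 in knockout cells and 8.43, 8.34 and 8.39 in wild-type cells at 6 h, a rise of 1.23 ± 0.14 or 2.35-fold (limma adjusted p = 1.12e-05). Slc25a13 (citrin) read 6.38, 6.14 and 6.30 in knockout cells against 7.21, 6.77 and 6.75, and was lower by −0.64 ± 0.16 (limma adjusted p = 0.0072). The 3 knockout arrays were above all wild-type arrays for Slc25a12 and below them for Slc25a13. Unstimulated knockout arrays of Slc25a12 read 8.81, 8.94 and 9.38, again highest on the array numbered 3.

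The remaining amino acid carriers called at 6 h were lower in knockout cells. Slc25a39, which takes glutathione into mitochondria, differed by −0.47 ± 0.09 (limma adjusted p = 0.00103), and Slc25a38, which carries glycine for haem synthesis, by −0.43 ± 0.10 (limma adjusted p = 0.00367). Slc25a40, the other glutathione carrier, differed by 0.01 ± 0.17. Slc25a44, a carrier of branched-chain amino acids, differed by 0.09 ± 0.20, and its groups overlapped.

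**Figure D3:**
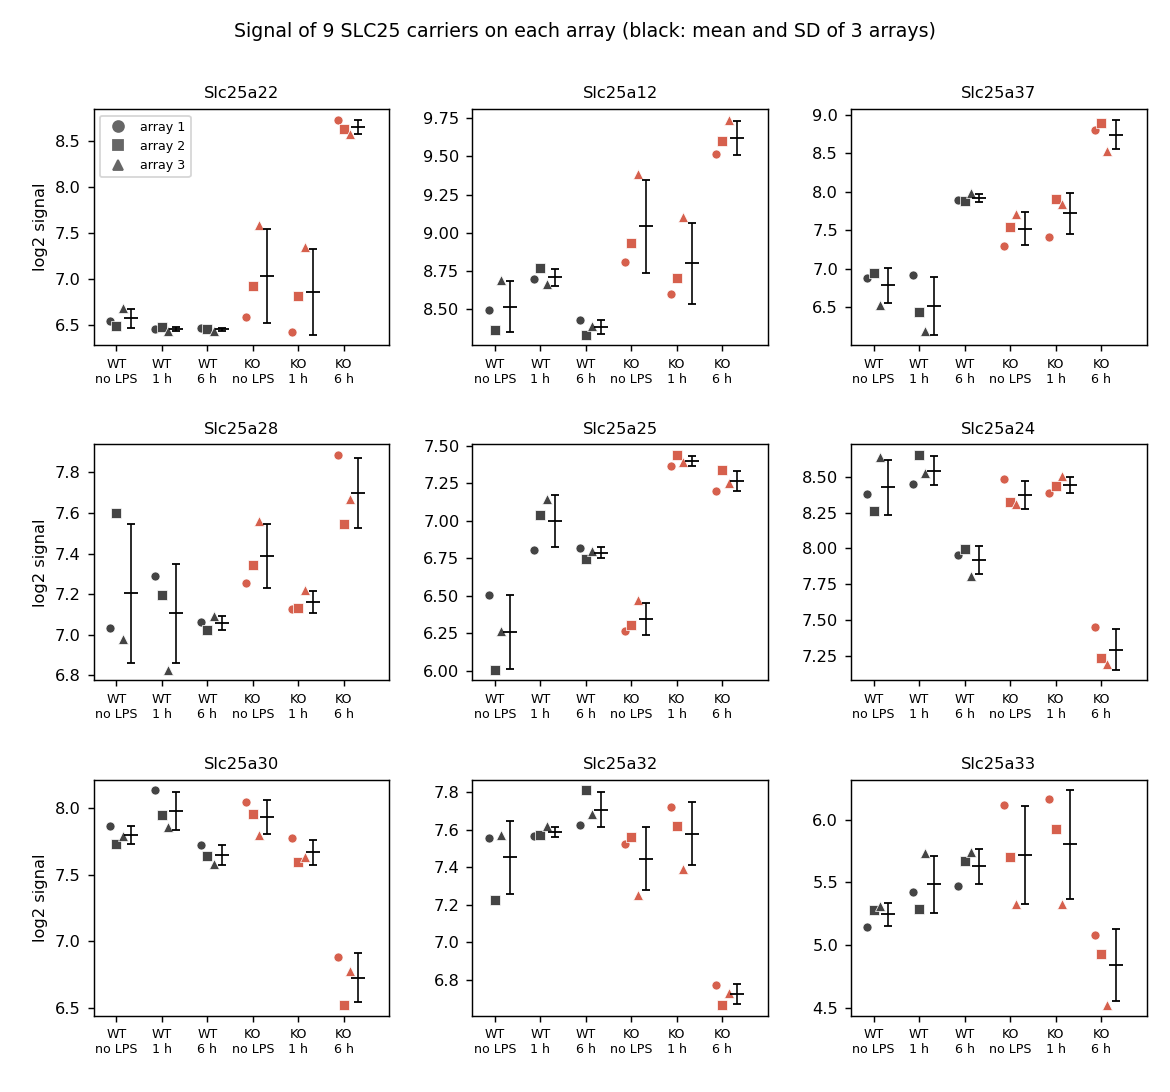
Log2 signal of 9 carriers on each array, by group (dark, wild type; red, knockout; symbols give the array number), with the mean and SD of the 3 arrays in black. For Slc25a22 the knockout arrays at 6 h lie at 8.58 to 8.73 and every other array at or below 7.59.

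Both mitoferrins were higher in knockout cells at 6 h. Slc25a37 read 8.81, 8.90 and 8.53 against 7.89, 7.88 and 7.98, a difference of 0.83 ± 0.18 (limma adjusted p = 0.00244). Slc25a28, mitoferrin-2, read 7.88, 7.55 and 7.67 against 7.06, 7.02 and 7.09, a difference of 0.64 ± 0.15 (limma adjusted p = 0.00461). Neither gene's groups overlapped. Mitoferrin-1 is best known from developing red cells. Of 9 erythroid markers 5 were measured and 4 had a mean under 5; at 6 h their mean was 5.33 to 5.45 in knockout and 5.20 to 5.49 in wild-type cells. Alas2, the red-cell form of the first haem enzyme, read 4.33 to 4.57 in knockout and 4.43 to 4.47 in wild-type cells. Klf1 and Slc4a1 were 0.38 and 0.35 higher in knockout cells and called.

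Of 13 measured genes of haem and iron-sulfur synthesis in mitochondria, 0 were called higher and 8 lower at 6 h, with a median of −0.52. The other 5 were not called. Of all genes 18.8% were lower. Among genes with a mean of at least 5, 44.8% were called in either direction, and their median was −0.17. Abcb10, a mitochondrial transporter known to bind mitoferrin-1, was lower by −1.28 ± 0.22 (limma adjusted p = 4.43e-04). It was also lower without LPS (−1.35 ± 0.22) and at 1 h (−1.07 ± 0.22), the comparisons in which Slc25a37 was higher. As same-numbered arrays of a genotype correlated across conditions, these comparisons are not separate repeats. Alad and Fech, enzymes of haem synthesis, differed by −0.89 ± 0.17 and −0.52 ± 0.11 at 6 h.

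Cofactor and nucleotide carriers moved down as far as they were called, with 0 higher and 5 lower of 8 and a median of −0.51. Slc25a32, which carries folate or FAD, read 6.77, 6.67 and 6.73 in knockout cells and 7.63, 7.81 and 7.69 in wild-type cells. It was lower by −0.99 ± 0.11, and no arrays overlapped (limma adjusted p = 8.96e-06). Slc25a33 and Slc25a36 carry pyrimidine nucleotides used for mitochondrial DNA and RNA. Slc25a33 read 5.08, 4.93 and 4.52 against 5.47, 5.67 and 5.74, a difference of −0.78 ± 0.21 (limma adjusted p = 0.0108) that was not called without knockout array 3 at 6 h. Slc25a36 read 7.78, 7.58 and 7.64 against 8.26, 8.43 and 8.24, a difference of −0.64 ± 0.13 (limma adjusted p = 0.00151), and its other probe set gave −0.90. Both pyrimidine carriers therefore lay lower in knockout cells at 6 h, with no overlap between the groups.

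The other carriers called in that group were Slc25a26, which brings in S-adenosylmethionine (−0.55 ± 0.13), and Slc25a51, which brings in NAD (−0.46 ± 0.08). Slc25a16, linked to coenzyme A, differed by −0.47 ± 0.19 and was not called (limma adjusted p = 0.0813). Of 8 measured genes of one-carbon metabolism 1 was higher (Aldh1l2, 0.41 ± 0.09) and 1 lower (Mthfd1, −1.24 ± 0.24), while 29.4% of all genes were called.

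Among adenine nucleotide and phosphate carriers 1 of 8 was higher and 4 were lower. The pair that exchange ATP-Mg for phosphate under the control of calcium parted. Slc25a25 read 7.20, 7.34 and 7.25 in knockout cells against 6.82, 6.75 and 6.80 in wild-type cells, 0.48 ± 0.11 higher (limma adjusted p = 0.00465). Slc25a24 read 7.45, 7.23 and 7.19 against 7.96, 7.99 and 7.81, and was lower by −0.63 ± 0.11 (limma adjusted p = 3.19e-04). In both, the arrays of the genotypes lay apart.

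The 3 brightest members by mean signal serve ATP synthesis directly. Slc25a5, an ADP/ATP carrier, read 11.15, 11.24 and 11.04 in knockout cells at 6 h against 11.53, 11.56 and 11.61, lower by −0.43 ± 0.10 (limma adjusted p = 0.00346). Its 3 probe sets gave −0.43, −0.40 and −0.42, and which of several near-identical gene copies each reads was not analysed here. Slc25a3, the phosphate carrier, read 9.80, 9.99 and 9.70 against 10.15, 10.14 and 10.18, lower by −0.32 ± 0.09 (limma adjusted p = 0.0131). Slc25a4, another ADP/ATP carrier, read 10.35, 10.29 and 10.11 against 10.52, 10.51 and 10.45, a difference of −0.24 ± 0.09 (limma adjusted p = 0.049). Slc25a3 lost its call without knockout array 3 at 6 h, and Slc25a4 lost it in 16 of the 18 omissions of a single array. With arrays scaled to their 75th percentile none of these 3 was called, Slc25a5 and Slc25a3 stayed lower at −0.18 and −0.08, and Slc25a4 turned to 0.0019.

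**Figure D4:**
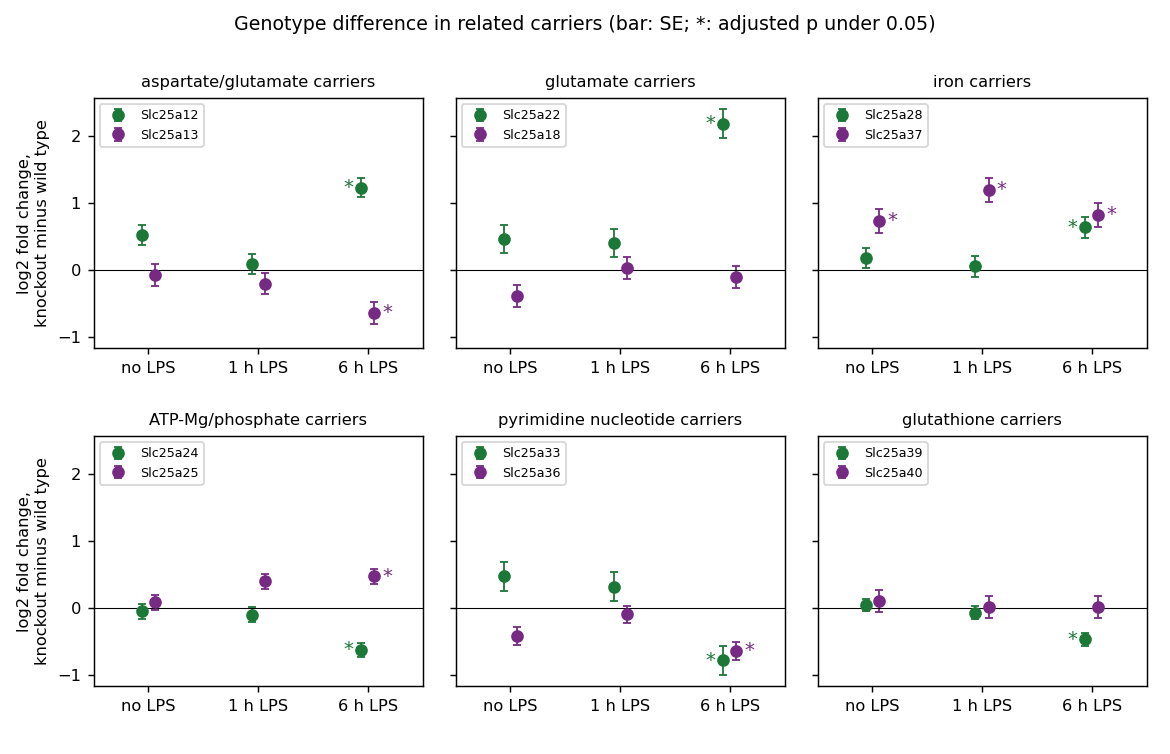
Log2 fold change, knockout minus wild type, without LPS and at 1 h and 6 h, for 6 pairs of related carriers, with standard errors (n = 3 arrays a group); an asterisk marks a limma call. At 6 h the members lie on opposite sides of 0 with both called for the aspartate/glutamate pair (1.23 and −0.64) and the ATP-Mg/phosphate pair (−0.63 and 0.48).

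Outside these groups, Slc25a30, an uncoupling-protein-like carrier, read 6.88, 6.52 and 6.77 in knockout cells and 7.72, 7.64 and 7.58 in wild-type cells. It was lower by −0.92 ± 0.11 with the groups apart (limma adjusted p = 9.1e-06). Slc25a35, whose substrate is not settled, read 5.84, 5.49 and 5.34 against 6.41, 6.35 and 6.43, lower by −0.84 ± 0.18 (limma adjusted p = 0.00193). Slc25a43, also without a settled substrate, read 7.40, 7.61 and 7.72 against 7.12, 7.30 and 7.24, higher by 0.35 ± 0.10 (limma adjusted p = 0.0104). Slc25a43 was not called without knockout array 3 or without wild-type array 1 at 6 h.

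Of 4 carboxylate carriers, Slc25a11, which exchanges oxoglutarate for malate in the malate-aspartate shuttle, was lower by −0.56 ± 0.12 (limma adjusted p = 0.00214). Slc25a1, the citrate carrier, differed by −0.19 ± 0.14 and its groups overlapped. Of 8 genes of citrate synthesis and use, 0 were higher and 5 lower, among them Idh1 at −1.15 ± 0.13, Acly, which splits exported citrate, at −0.41 ± 0.09 and Fasn, the fatty acid synthase, at −1.32 ± 0.31. Of the 4 enzymes of the malate-aspartate shuttle 3 were lower, Mdh1 by −0.38 ± 0.07, Got2 by −0.45 ± 0.14 and Mdh2 by −0.31 ± 0.08. Within this shuttle Slc25a12 was the gene called higher.

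Slc25a20, which exchanges acylcarnitine for carnitine, differed by −0.16 ± 0.09 at 6 h (limma adjusted p = 0.2). Around it, 1 of 13 genes of the carnitine shuttle and fatty acid oxidation was higher and 6 were lower. The higher one was Cpt1a, the rate-controlling step of entry, at 0.93 ± 0.08, while Crat and Acadvl both differed by −0.75.

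Of 8 genes that deliver carriers to the inner membrane, 0 were called higher and 6 lower in knockout cells at 6 h, with a median of −0.66, against 18.8% of all genes lower. Among genes with a mean of at least 5, 44.8% were called in either direction, with a median of −0.17. The Tim chaperone genes Timm8a1 and Timm9 differed by −1.50 ± 0.16 and −1.49 ± 0.16, and Timm10 by −0.71 ± 0.09. Of 11 regulators of mitochondrial biogenesis 1 was higher and 5 lower, including Tfb2m (−1.56 ± 0.17) and the coactivator genes Ppargc1b (−1.31 ± 0.13) and Pprc1 (−0.81 ± 0.12). Of 4 family members with other symbols, Mtch1 (−0.46 ± 0.10) and Mtch2 (−0.43 ± 0.11), of the outer membrane, were lower.

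The counts of called genes in other transport and nitrogen lists at 6 h stand beside 29.4% of all genes and 44.8% of genes with a mean of at least 5. Of 9 genes of pyruvate and outer membrane transport, 1 was higher (Tspo, 0.87 ± 0.19) and 3 lower, with Mpc1, of the pyruvate carrier, at −0.69 ± 0.12, a share near that background. Of 7 genes of calcium uptake, 0 were higher and 3 lower. Of 8 enzymes of arginine, ornithine and polyamines, 1 was higher and 5 lower, with Srm, the spermidine synthase, at −1.62 ± 0.24.

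The next question was how LPS itself changed the carriers in each genotype. At 1 h, Slc25a25 was the 1 member called in wild-type cells (0.301% of all genes were called) and the 1 member called in knockout cells (0.667% of all genes). It read 6.81, 7.04 and 7.15 at 1 h against 6.50, 6.01 and 6.27 in unstimulated wild-type cells, and 7.37, 7.44 and 7.39 against 6.27, 6.31 and 6.47 in knockout cells. The rise was 0.74 ± 0.11 in wild-type cells (limma adjusted p = 0.00537) and 1.05 ± 0.11 in knockout cells (limma adjusted p = 7.28e-05). The wild-type call was lost without wild-type array 3 at 1 h (adjusted p = 0.0561).

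In wild-type cells at 6 h, 4 of the 46 members were called, 2 higher and 2 lower, against 8.1% of all genes, 4.23% higher and 3.86% lower. Slc25a37 went from 6.88, 6.95 and 6.53 to 7.89, 7.88 and 7.98, a rise of 1.13 ± 0.18 (limma adjusted p = 7.1e-04). Slc25a25 stood at 6.82, 6.75 and 6.80, still 0.53 ± 0.11 above unstimulated cells (limma adjusted p = 0.00739). In both, every stimulated array lay above every unstimulated one. In this comparison the groups lay apart, in either direction, for 23.5% of all genes and 98.9% of called genes.

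The 2 members that fell in wild-type cells at 6 h were Slc25a24 and Slc25a15. Slc25a24 went from 8.38, 8.26 and 8.64 to 7.96, 7.99 and 7.81, a change of −0.51 ± 0.11 (limma adjusted p = 0.00608). Slc25a15 went from 6.27, 6.80 and 6.20 to 6.00, 5.97 and 5.90, a change of −0.46 ± 0.13 (limma adjusted p = 0.0376) that lost its call in 4 of the 18 omissions. With the replicate block within genotype, 9 members were called, 3 higher and 6 lower. All 4 stayed called, and Slc25a33 (0.38) joined them upwards and Slc25a35, Slc25a38, Slc25a39 and Slc25a43 (−0.39 to −0.25) downwards.

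In knockout cells at 6 h, 22 of the 46 members were called (47.8%), 4 higher and 18 lower, against 32.2% of all genes, 12% higher and 20.2% lower. Of the 36 members with a mean signal of at least 5, 61.1% were called, against 48.5% of all genes with such a signal. The members' median was −0.19 and that of all genes 0.03; among genes with a mean of at least 5 these were −0.36 and −0.19. Slc25a22 rose by 1.61 ± 0.21, Slc25a37 by 1.22 ± 0.18, Slc25a25 by 0.91 ± 0.11 and Slc25a12 by 0.58 ± 0.14. The largest falls were in Slc25a30 (−1.21 ± 0.11), Slc25a24 (−1.08 ± 0.11), Slc25a33 (−0.87 ± 0.21) and Slc25a39 (−0.77 ± 0.09). With arrays scaled to their 75th percentile, which moved the median of all genes up by 0.27, the split was 15 higher and 8 lower, and 12 of the 22 calls were kept; 7 of the 11 members gained as higher had a mean under 5. Without the knockout arrays numbered 3, 17 of the 22 were kept, and Slc25a3, Slc25a5, Slc25a11, Slc25a20 and Slc25a45 lost their calls. The genotype comparison at 6 h and the knockout response share the knockout arrays at 6 h.

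**Figure D5:**
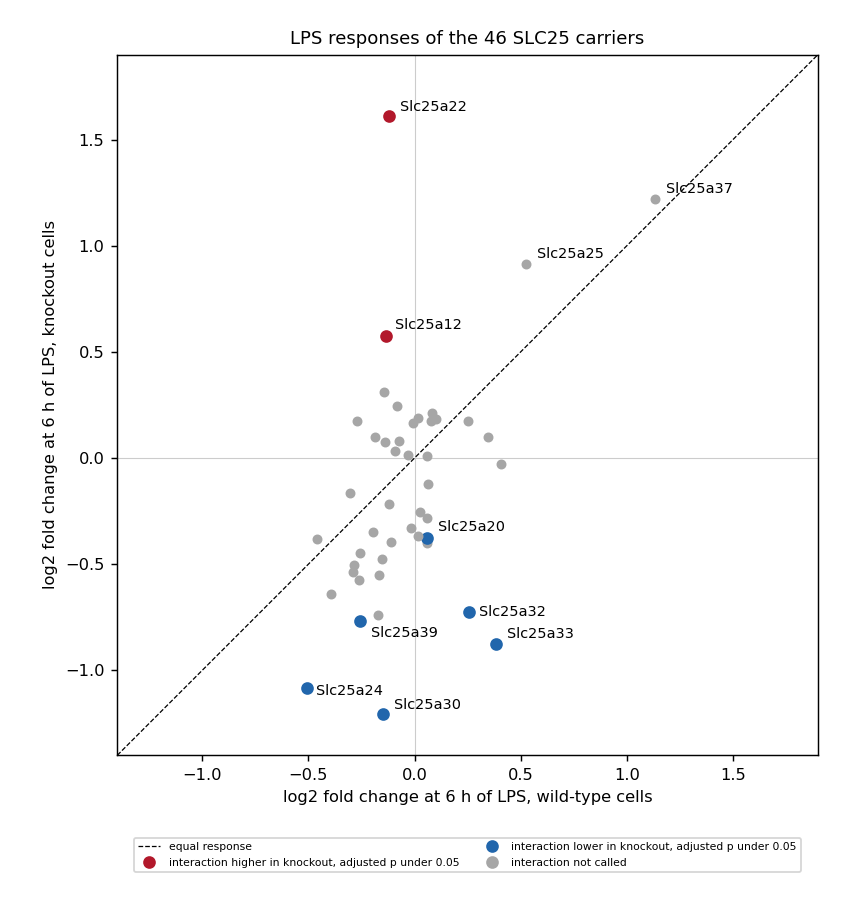
Log2 fold change of each of the 46 carriers after 6 h of LPS in wild-type cells (horizontal) and knockout cells (vertical); the dashed line marks equal responses, and coloured points are those whose interaction was called by limma. Slc25a37 and Slc25a25 rose in both genotypes, while Slc25a22 (−0.12 and 1.61) and Slc25a12 (−0.13 and 0.58) rose in knockout cells alone and their interactions were called.

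The difference between the genotypes' responses was tested as an interaction. At 1 h limma called 0 members and 0% of all genes, while 2 members (4.35%) and 2.97% of all genes had an unadjusted p under 0.05. At 6 h it called 8 members (17.4%), 2 higher and 6 lower in knockout cells, against 10.2% of all genes, 3% higher and 7.18% lower. Among genes with a mean signal of at least 5, 16.4% were called, and 22.2% of such members. The median was −0.17 for members and 0.01 for all genes, and −0.25 and −0.17 among those with such a signal. Scaling to the 75th percentile moved the median of all genes up by 0.29 and gave 7 members higher and 3 lower, with 3 of the 5 gained as higher under a mean of 5.

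The largest interaction was that of Slc25a22. Its response was −0.12 ± 0.21 in wild-type and 1.61 ± 0.21 in knockout cells, a difference of 1.73 ± 0.30 (limma adjusted p = 0.00182). Slc25a33 differed by −1.26 ± 0.30 (limma adjusted p = 0.0148): its knockout arrays went from 6.12, 5.70 and 5.33 to 5.08, 4.93 and 4.52, and its wild-type arrays from 5.14, 5.28 and 5.31 to 5.47, 5.67 and 5.74. Slc25a30 differed by −1.06 ± 0.15 (limma adjusted p = 4.38e-04), from 8.05, 7.96 and 7.80 to 6.88, 6.52 and 6.77 in knockout cells. In wild-type cells it went from 7.87, 7.73 and 7.79 to 7.72, 7.64 and 7.58.

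Slc25a32 differed by −0.98 ± 0.16 (limma adjusted p = 0.00123). Its knockout arrays went from 7.52, 7.56 and 7.25 to 6.77, 6.67 and 6.73, and its wild-type arrays from 7.56, 7.23 and 7.57 to 7.63, 7.81 and 7.69. The interactions of Slc25a22, Slc25a30, Slc25a32 and Slc25a33 were called in each of the 18 omissions of a single array. Slc25a12 (0.71) was also called higher and Slc25a20 (−0.44), Slc25a24 (−0.58) and Slc25a39 (−0.51) lower, and these lost their calls in 9, 13, 7 and 2 omissions. The response of Slc25a37 did not pass as different between genotypes (0.09), although its level was higher in knockout cells in each of the 3 conditions. Same-numbered arrays of a genotype correlated across conditions, so the 3 conditions do not count as separate repeats.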

How the data were processed

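The 18 arrays are Affymetrix Mouse Gene ST 1.0, with 200 ng of total RNA each. The deposited table holds 1 log2 signal per probe set, summarised by the authors with RMA, per the submitters' processing notes. No version or log base is stated; with a highest value of 13.71 the values were taken as log2 and used unchanged.

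Of 35556 probe sets, GEO's platform annotation gave 1 gene symbol for 21789, several for 1621 and did not list 12146. For 999 genes with several probe sets the one with the highest mean was kept, leaving 19938 genes. limma 3.58.1 (R 4.3.3) fitted 6 group means (12 residual degrees of freedom), and contrasts gave 9 comparisons with 2-sided tests. No detection calls exist, so changes at low signal are less certain. A gene's spread within groups was pooled over all 6 groups and drawn by limma towards that of other genes. A standard error can therefore differ from the spread of the 3 arrays printed beside it. Beyond the design's word nothing says that arrays came from separate animals.

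Members and gene lists were chosen with earlier results of these data known. Per-array values are given for the called members with the largest change: up to 6 in each direction per genotype comparison, 4 for the wild-type 6 h response and 4 for the 6 h interaction. The 3 brightest members are added, and up to 3 called genes per list, by adjusted p. Outside this rule, array values were also given for Slc25a1, which was not called, and for some other named members and markers. The fit was tested on simulated data with 200 changed genes. It called 52.5% of changes of 0.5, 91.2% of changes of 1 and 100% of changes of 2. Noise was drawn independently for each array there, unlike the correlated arrays described below. The knocked-out gene is not reported here.

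Replicate numbers pair arrays within a genotype: all 18 same-numbered pairs of different conditions correlated over 0.1 (r 0.152 to 0.795, deviations from group means). Among arrays of its genotype in other conditions, every array correlated best with one of its own number. Across genotypes 13 of 27 same-numbered pairs correlated over 0.1. Other settings were median centring, 75th percentile scaling, a filter at a mean of 5, the mean of probe sets, array weights, only the groups compared, replicate blocks and leaving out each array.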

Additional observations from a re-analysis of the deposited data

Results flagged for a closer look

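The effect of 6 h of LPS was called as different between the genotypes for 8 carriers, by limma's interaction test with adjustment over all 19938 genes. The difference, knockout response minus wild-type response, was positive for Slc25a22 (1.73, adjusted p = 0.00182) and Slc25a12 (0.71, adjusted p = 0.037). It was negative for Slc25a33 (−1.26, adjusted p = 0.0148), Slc25a30 (−1.06, adjusted p = 4.38e-04), Slc25a32 (−0.98, adjusted p = 0.00123), Slc25a24 (−0.58, adjusted p = 0.0231), Slc25a39 (−0.51, adjusted p = 0.0201) and Slc25a20 (−0.44, adjusted p = 0.045). With arrays scaled to their 75th percentile, Slc25a20, Slc25a24 and Slc25a39 lost their calls (limma adjusted p = 0.46, 0.141 and 0.172), and 5 other members were gained as higher. Median centring lost Slc25a20 (limma adjusted p = 0.0971), and a fit of only the groups compared kept 4 of the 8. No group had 4 arrays or more, so single arrays were not screened as outliers.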

How the results depend on the processing

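Counts of called members that moved by over 1.5 times were these. Without LPS, knockout against wild type gave 1 member, and 2 with the filter at a mean of 5, 0 with only the groups compared, 2 with a random replicate block and 3 with the block by number over both genotypes. At 1 h array weights gave 4 in place of 1. For the wild-type response at 1 h, only the groups compared gave 0 and the random replicate block 2, in place of 1. For the wild-type response at 6 h, only the groups compared gave 2, the random replicate block 7 and the replicate block within genotype 9, in place of 4. For the 6 h interaction only the groups compared gave 4 in place of 8. The cause was not tested. The replicate block within genotype gave 24 members for the knockout response and 11 for the interaction at 6 h and lost no call; the block by number gave 21 at 6 h and 1 at 1 h.

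Leaving out single arrays gave 0 to 3 members for the genotype comparison without LPS, 1 to 2 at 1 h and 17 to 24 at 6 h. For wild-type responses it gave 0 to 1 at 1 h and 3 to 5 at 6 h, for knockout responses 1 to 1 and 19 to 23, and for interactions 0 to 0 and 5 to 9. Of 59 called member differences, 41 kept their call with arrays scaled to their 75th percentile, 17 lost it and 1 reversed, Slc25a4 at 6 h (0.0019); median centring kept 55. Without the knockout arrays numbered 3, chosen after seeing the data, Slc25a37 lost its call without LPS (adjusted p = 0.145), Slc25a3, Slc25a4 and Slc25a43 at 6 h, Slc25a3, Slc25a5, Slc25a11, Slc25a20 and Slc25a45 in the knockout response at 6 h, and Slc25a20 and Slc25a24 in the interaction (11 of 59 calls). Signal over background limits the 10 members with a mean under 5.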
